A study of Mus musculus with 6 samples.

Results

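Respiratory complexes II to V take electrons from succinate and from ubiquinol to oxygen and use the proton gradient to make ATP. Their nuclear genes were described here in regulatory T cells (Tregs), and the genes were chosen by symbol: Sdha to Sdhd, and every symbol that starts with Uqcr, with Cox and a digit from 4 to 8, or with Atp5. 47 of the 23725 genes in the deposited tables matched. Of these, 4 encode complex II, 8 complex III, 17 complex IV and 15 complex V, and 3 are associated genes whose products are not counted here as subunits. The data are 3 libraries of Tregs from whole-animal MOG KO mice and 3 from WT mice, all C57Bl/6 and all immunised with MOG, the myelin oligodendrocyte glycoprotein; the mice differ in whether they make MOG themselves. Each library was made from 500 lymph node Tregs. The labels used here state neither ages nor whether replicates came from different animals, so a p-value reflects only how much these libraries vary, which may in part be technical.

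As background, succinate dehydrogenase (complex II) also belongs to the tricarboxylic acid cycle, cytochrome bc1 (complex III) passes electrons to cytochrome c, cytochrome c oxidase (complex IV) reduces oxygen, and ATP synthase (complex V) is a rotary motor with a catalytic F1 head, a membrane ring of c subunits and a peripheral stalk. Complexes III, IV and V also contain subunits made from the mitochondrial genome, which the analysed tables do not list under the symbols searched. Treg cells are known to rely on oxidative metabolism, and loss of complex III in Tregs impairs their suppressive function in mice.

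Gene counts totalled 3450623 to 4361315 in MOG KO libraries and 2717969 to 4472549 in WT libraries. A count of 0 allows up to 0.688 to 0.869 RPM (reads scaled to the same library total, as deposited) in MOG KO libraries and 0.671 to 1.1 RPM in WT libraries, by a floor of 3 counts that covers counting error only. From here on, present means at least 10 RPM in that library. WT replicate 3 stood apart, with 2701 genes present, against 3265 to 3528 in MOG KO libraries and 3923 and 4440 in WT replicates 1 and 2. It had 8.22 RPM of Foxp3, the defining transcription factor of Tregs, against 326 to 476 RPM in MOG KO libraries and 690 and 400 RPM in the other WT libraries. Among the other Treg markers, Il2ra had 371 to 849 RPM in MOG KO and 654 to 739 RPM in WT libraries. Ctla4 had 502 to 537 RPM in MOG KO and 74.3 to 612 RPM in WT, and Cd4 592 to 722 RPM in MOG KO and 169.5 to 651 RPM in WT. WT replicate 3 held the lowest Ctla4 and Cd4 values, and 1.42 RPM of Cd3g. The same library had 708 RPM of Il2ra and 1294 RPM of Ikzf2, the highest Ikzf2 value of the 6 libraries. The 8 Treg markers summed to 3544 to 4479 RPM in MOG KO and 2763 to 4821 RPM in WT libraries, and the markers of CD8 T cells (2 genes) and NK cells (3 genes) were at 0 counts in all 6 libraries. B cell markers summed to 0 to 130 RPM in MOG KO and 2.21 to 206 RPM in WT libraries, with Cd79a at 0 throughout. Macrophage markers summed to 5.78 to 193 RPM in MOG KO and 5.81 to 18.8 RPM in WT libraries. Stromal and endothelial markers summed to 31.2 to 461 RPM in MOG KO and 1.98 to 95.3 RPM in WT libraries. The highest sums came from Cd68 in MOG KO replicate 2 (188 RPM) and from Pecam1 in MOG KO replicate 1 (461 RPM). The other macrophage markers had at most 9.57 RPM in any library, and the other stromal and endothelial markers at most 3.68 RPM. The dendritic cell, neutrophil and plasma cell lists summed to 1.74, 0.290 and 0.290 RPM at most in MOG KO libraries and 0.736, 1.1 and 10.3 RPM at most in WT libraries, and erythroid genes to 8.09 to 32.5 RPM in MOG KO and 6.71 to 51.3 RPM in WT libraries. The part of these cells in the results was not tested. Mog itself had 0 counts in MOG KO and 1 count in WT libraries, so it does not check the genotype labels.

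Detection of the respiratory genes was close to all or nothing in each library. Of the 47 genes, 13 were present in all 6 libraries, 25 in some libraries and not in others, and 9 in none. Among the 228 values of the 38 genes present somewhere, 174 were at 10 RPM or more, 48 were under 3 RPM, and 6 (2.63%) lay between. These shares were not computed for all genes. Uneven presence was not particular to the respiratory genes, as 7205 of 7909 genes in the whole table were present in 1 to 5 libraries. The median over the present values was 103 RPM for the 13 genes read in every library and 110 RPM for the 25 others, which counts only values of at least 10 RPM. The highest library exceeded the lowest by 1.57 to 5.2 times among the 13 genes.

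**Figure D1:**
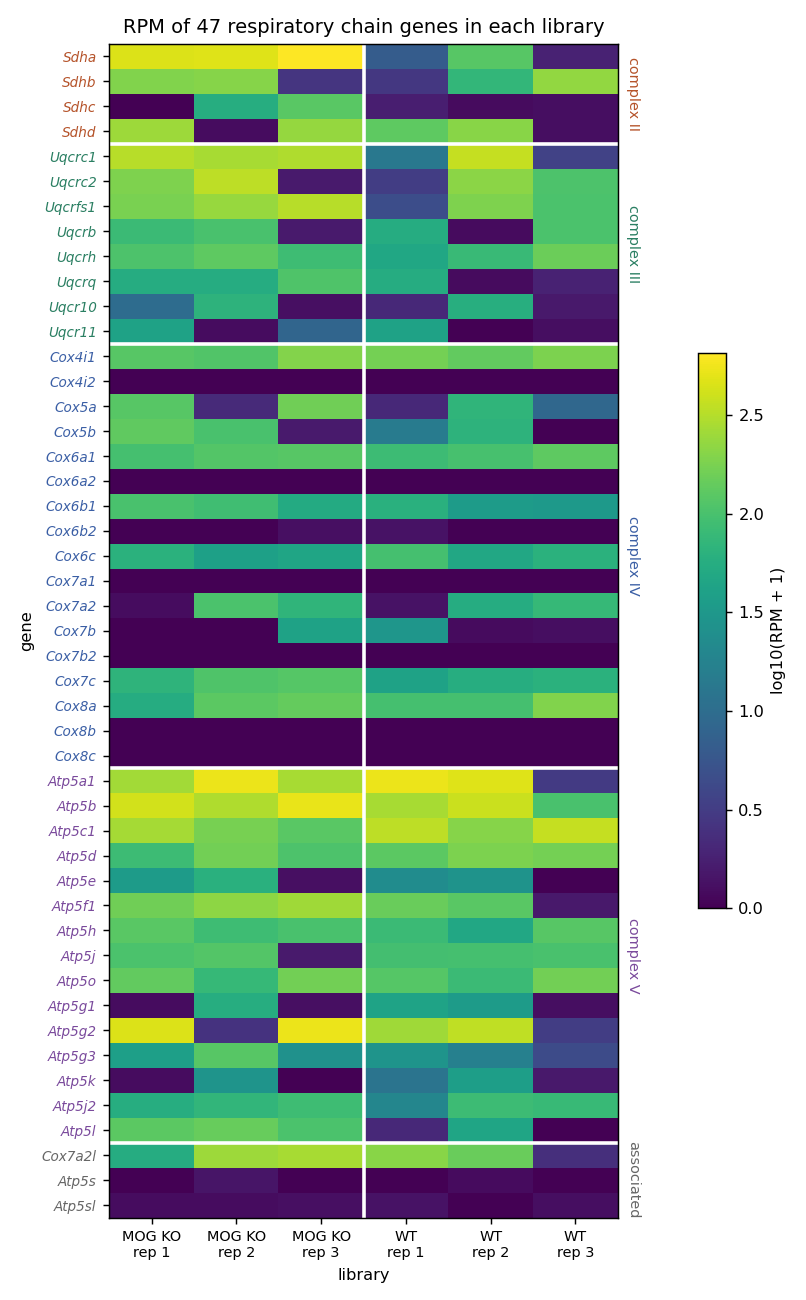
RPM of the 47 genes on a log10(RPM + 1) colour scale, with genes in rows by complex and the 3 MOG KO and 3 WT libraries in columns. 13 rows are bright in all 6 columns, 9 rows are dark throughout, and 25 rows are mixed.

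Of genes present in at least 1 library, 13 of 38 respiratory genes (34.2%) were present in all 6, against 4 of 39 genes with symbols that start with Nduf, the complex I group (10.3%), 67 of 90 ribosomal protein genes (74.4%) and 704 of 7909 genes in the whole table (8.9%). Median levels per length followed the same order among the named groups. They were 99.7 RPM per kb of transcript for complexes II to V, 50.9 for the Nduf group and 187 for ribosomal proteins. Each gene's level was its mean over all 6 libraries, including those where it was not present. Genes missed in some libraries are lowered by this, so the order of levels is not independent of the order of presence. Between a pair of libraries, presence changed for 13 ± 3.46 of the 38 genes within a genotype (SD, 6 pairs) and for 11.6 ± 3.68 across genotypes (SD, 9 pairs); the pairs share libraries. MOG KO libraries had 32, 33 and 28 of the 47 genes present, and WT libraries 29, 33 and 19. The low value was that of WT replicate 3.

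**Figure D2:**
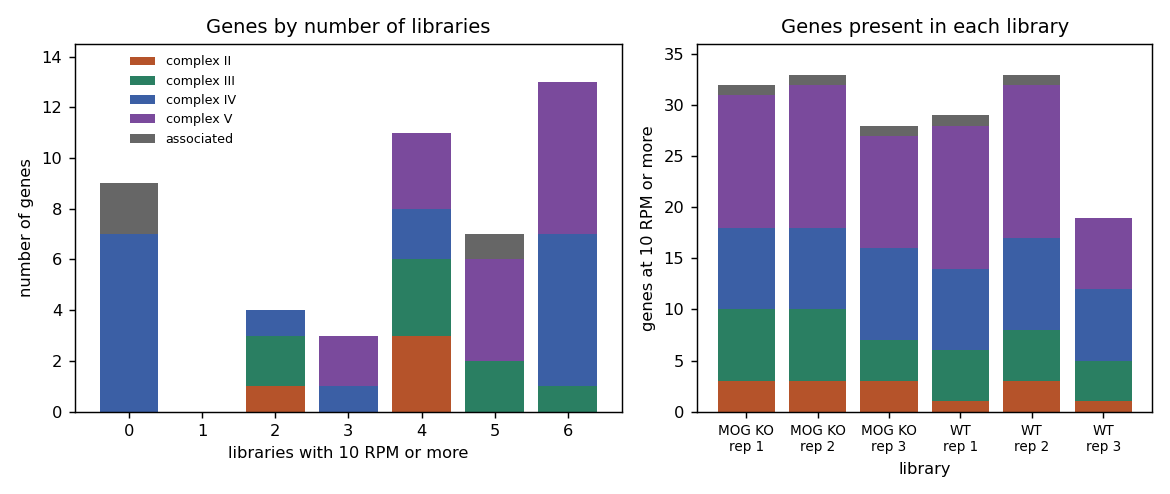
Left, number of genes by how many of the 6 libraries had them at 10 RPM or more, coloured by complex; right, genes at 10 RPM or more in each MOG KO and WT library. 13 genes reach 6 libraries, and WT replicate 3 has 19 genes present, the fewest.

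In the comparison of MOG KO with WT, 0 of the 36 respiratory genes tested passed an adjusted p of 0.05 in edgeR, and 0% of all 4088 genes tested did (smallest adjusted p 0.602). At an unadjusted p under 0.05 there were 0 of the 36 genes and 5.11% of all genes. Every adjusted p of a respiratory gene in this fit was 0.9996, other than that of Cox6a1, 0.9999. By value, 27 of 36 log2 fold changes (MOG KO over WT) were positive and 9 negative, against 2128 positive of 4088 genes (52.1%), and the median was 0.34 against 0.06 over all genes tested. With the size factors of DESeq2 the split was 23 positive and 13 negative, and without MOG KO replicate 2 it was 21 and 16, with a median of 0.22. The median standard error (SE) of these genes was 1.99 on the log2 scale, so a change of 2-fold or 4-fold in a respiratory gene lay within the error. Ribosomal protein genes had 60 of 85 positive values (median 0.36) and the Nduf group 13 of 26 (median 0.03). These comparisons share all 6 libraries, and differences between the groups of genes were not tested.

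Summed over the 47 genes, MOG KO libraries had 4968, 5121 and 5334 RPM in replicates 1, 2 and 3, and WT libraries 3237, 4285 and 2548 RPM. The genotypes did not overlap, with 5141 ± 184 RPM in MOG KO and 3357 ± 874 RPM in WT (SD, n = 3 each). The difference was 1785 RPM, and 1380 RPM without WT replicate 3. No test was made of a sum over chosen genes, and with 3 libraries against 3 no exact permutation test can go below 0.1. The Nduf group summed to 2312, 1957 and 2491 RPM in MOG KO and 1620, 2293 and 2340 RPM in WT libraries, which overlapped. WT replicate 3, with the lowest sum, also had the fewest genes present (2701). In these pooled cells, fewer expressing cells, less RNA per cell and transcripts missed in a library cannot be told apart. None of these was tested.

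**Figure D3:**
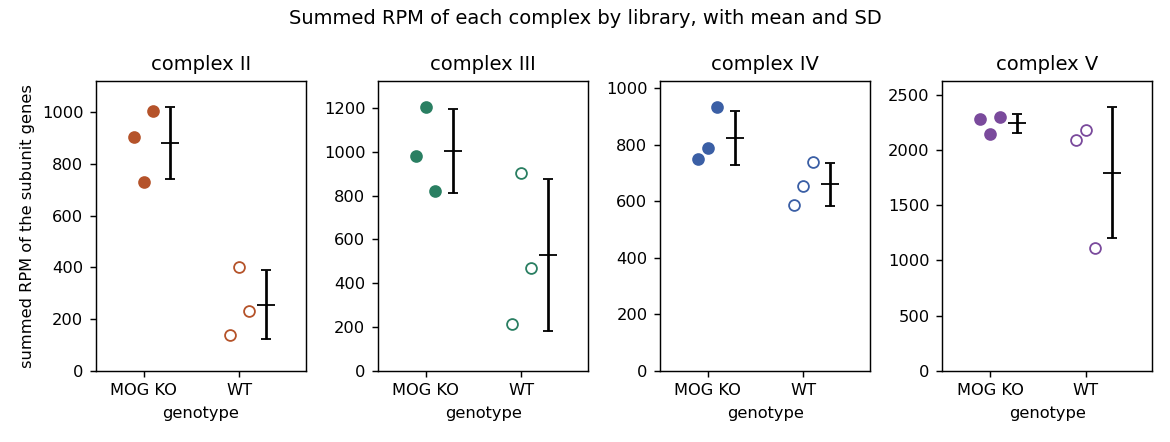
Summed RPM of the subunit genes of each complex that were matched by symbol, in MOG KO (filled points) and WT (open points) libraries. The mean and SD of 3 libraries are beside each group, and every axis starts at 0. By the matched genes, complex II and complex IV do not overlap between genotypes, while complexes III and V do. The complex IV sum leaves out Ndufa4, and the complex III sum leaves out Cyc1.

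Complex II held the widest gap by value. Its 4 genes summed to 904, 729 and 1004 RPM in MOG KO and 138, 399 and 229 RPM in WT libraries. Most of this came from Sdha, the flavoprotein that oxidises succinate (GRCm38 chromosome 13, 74322255 to 74350240), which had 463, 474 and 649 RPM in MOG KO replicates 1, 2 and 3 and 5.52, 121 and 0.850 RPM in WT replicates 1, 2 and 3. All MOG KO libraries were high, WT replicate 2 was intermediate and the other WT libraries were near 0. The log2 fold change of Sdha was 3.66 ± 1.97 (SE, n = 3 each; 95% interval -0.93 to 8.26; unadjusted p = 0.103, adjusted p = 0.9996 in edgeR), and over the other settings it ranged from 3.1 without WT replicate 3 to 7.34 without WT replicate 2.

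The other complex II genes were missed in different libraries. Sdhb, the iron-sulfur subunit, had 188, 199 and 1.74 RPM in MOG KO and 1.84, 72.4 and 228 RPM in WT libraries. Sdhd, a membrane anchor, had 252, 0.229 and 231 RPM in MOG KO and 130, 205 and 0.283 RPM in WT libraries (log2 fold change 0.52 ± 2.54, adjusted p = 0.9996 in edgeR), and its value was -0.039 without WT replicate 3. No library had all 4 genes of complex II present, and each gene was absent from at least 2 libraries. Sdhc, the other anchor, had 0, 55.3 and 122 RPM in MOG KO and 0.736, 0.224 and 0.283 RPM in WT libraries. MOG KO replicate 1 was as low as the WT libraries, so the genotypes overlapped. Sdhc had more than 2 counts in 2 libraries only and did not pass the edgeR filter, and in DESeq2 it was the only respiratory gene called (log2 fold change 7.13, adjusted p = 0.0319, 1 of 36 genes with an adjusted p), where 5.79% of all genes were called higher and 10.1% lower in MOG KO.

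The 8 genes of complex III matched by symbol all had positive values, from 0.05 to 1.94, and 0 passed. Uqcrh, the hinge protein beside cytochrome c1, was its only gene present in every library, at 107, 129 and 86.4 RPM in MOG KO and 46.0, 80.3 and 152 RPM in WT libraries. The genotypes overlapped. Uqcrq, a small subunit and the one of smallest p, had 53.6, 54.8 and 107 RPM in MOG KO and 54.8, 0.224 and 0.850 RPM in WT libraries (log2 fold change 1.94 ± 2.31, unadjusted p = 0.426 and adjusted p = 0.9996 in edgeR). Without WT replicate 1 the value was 6.88. That library matched the MOG KO libraries and the other WT libraries were near 0. Uqcrfs1, the Rieske iron-sulfur protein that carries electrons to cytochrome c1, had 178, 240 and 321 RPM in MOG KO and 3.68, 185 and 104 RPM in WT libraries (1.29 ± 1.85, unadjusted p = 0.506 and adjusted p = 0.9996 in edgeR). Only WT replicate 1 was near 0. Cyc1, the cytochrome c1 subunit that the symbols do not cover, had a negative value (-0.98 ± 2.45, adjusted p = 0.9996 in edgeR). It had 227, 0.917 and 0.290 RPM in MOG KO and 59.2, 173 and 175 RPM in WT libraries.

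The core proteins of complex III differed from each other in where they were read. Uqcrc1 had 326, 278 and 300.2 RPM in MOG KO and 12.5, 367 and 2.55 RPM in WT libraries, so it was even in MOG KO and uneven in WT. Uqcrc2 had 187, 338 and 0.580 RPM in MOG KO and 2.21, 213 and 107 RPM in WT libraries. Summed, complex III reached 982, 1204 and 823 RPM in MOG KO and 216, 903 and 470 RPM in WT libraries, which overlapped. The small subunits Uqcrb, Uqcr10 and Uqcr11 had 2 to 4 libraries present each and log2 fold changes of 0.05 to 0.37.

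Complex IV separated by isoform. All 7 isoforms known mainly from muscle, lung or testis (Cox4i2, Cox6a2, Cox6b2, Cox7a1, Cox7b2, Cox8b and Cox8c) were present in no library, and 6 of them had 0 counts in every library, which allows up to 1.1 RPM in the shallowest. Cox6b2 had 1 count in 1 MOG KO and 1 count in 1 WT library. The widely expressed partners Cox4i1, Cox6a1, Cox6b1 and Cox8a were present in all 6 libraries. Cox7a2 and Cox7b, the partners of Cox7a1 and Cox7b2, were present in 4 and 2.

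Cox6a1, a subunit at the dimer interface, had the narrowest range of the 38 genes. It had 95.4, 113 and 119 RPM in MOG KO and 82.8, 97.7 and 130 RPM in WT libraries, a range of 1.57 times. Cox4i1, the isoform of subunit 4 in most tissues, had 119, 111 and 192 RPM in MOG KO and 167, 138 and 179 RPM in WT libraries (log2 fold change -0.26 ± 1.61, 95% interval -3.98 to 3.45, adjusted p = 0.9996 in edgeR). Cox8a had 54.3, 125 and 140 RPM in MOG KO and 94.2, 95.5 and 189 RPM in WT libraries (-0.33 ± 1.71, adjusted p = 0.9996 in edgeR), and its value was 0.19 without WT replicate 3. The genotypes overlapped for all of these. Cox6c had 62.4, 39.0 and 43.8 RPM in MOG KO and 96.4, 48.1 and 62.4 RPM in WT libraries. Cox6b1 had 99.6, 87.6 and 51.3 RPM in MOG KO and 60.0, 34.0 and 32.0 RPM in WT libraries, and overlapped through 1 library of each genotype.

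Cox7c, a small subunit of complex IV, was apart between genotypes, at 65.9, 109 and 117 RPM in MOG KO and 41.2, 55.4 and 62.1 RPM in WT libraries. The gap between the lowest MOG KO and the highest WT library was small beside the spread within each genotype (log2 fold change 0.81 ± 1.7, 95% interval -3.12 to 4.75, adjusted p = 0.9996 in edgeR). The 2 genes of smallest p in this complex were unevenly read. Cox5a had 121, 1.15 and 160 RPM in MOG KO and 1.1, 67.5 and 7.65 RPM in WT libraries (1.88 ± 2.34, unadjusted p = 0.446 and adjusted p = 0.9996 in edgeR). Cox5b had 133, 100.4 and 0.580 RPM in MOG KO and 14.0, 65.1 and 0 RPM in WT libraries (1.56 ± 2.61, unadjusted p = 0.566 and adjusted p = 0.9996 in edgeR). Both overlapped between genotypes, and without WT replicate 2 their values were 4.27 for Cox5a and 3.49 for Cox5b. Summed, the matched genes of complex IV had 751, 789 and 932 RPM in MOG KO and 586, 655 and 738 RPM in WT libraries, which did not overlap. This sum leaves out Ndufa4, a complex IV subunit that by its symbol was counted in the Nduf group. Ndufa4 had 59.2, 1.15 and 92.7 RPM in MOG KO and 1.47, 78.9 and 110 RPM in WT libraries. The separation was narrow and holds only for the matched genes.

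In complex V, 9 of 15 values were positive and 6 negative, and 0 passed. In the catalytic F1 head, Atp5b (beta, which carries the active sites) had 418, 301 and 517 RPM in MOG KO and 279, 382 and 99.5 RPM in WT libraries, with a log2 fold change of 0.69 ± 1.12 (95% interval -1.91 to 3.28, adjusted p = 0.9996 in edgeR). Atp5c1, the gamma shaft that turns inside the head, had 274, 170 and 122 RPM in MOG KO and 337, 201 and 370 RPM in WT libraries (-0.78 ± 1.38, adjusted p = 0.9996 in edgeR). Both genes overlapped between genotypes. Atp5d, the delta subunit at the foot of the shaft, had 83.7, 162 and 106 RPM in MOG KO and 125, 178 and 168 RPM in WT libraries (-0.48 ± 1.64, adjusted p = 0.9996 in edgeR). Atp5a1, the alpha subunit, had 267, 542 and 281 RPM in MOG KO and 531, 475 and 1.98 RPM in WT libraries. Thus WT replicate 3 read beta, gamma and delta but was near 0 for alpha, and it had 0 counts of Atp5e, the epsilon subunit.

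The c ring is built from 1 protein that 3 genes encode, Atp5g1, Atp5g2 and Atp5g3, which differ in their import sequences. Atp5g2 had 461, 1.61 and 539 RPM in MOG KO and 259, 350 and 2.27 RPM in WT libraries. Atp5g1 had 0.231, 55.0 and 0.290 RPM in MOG KO and 42.3, 34.4 and 0.283 RPM in WT libraries. MOG KO replicate 2, the library with the least Atp5g2, had the most Atp5g1. WT replicate 3, nearly as low in Atp5g2 at 2.27 RPM, had only 0.283 RPM of Atp5g1. Atp5g3 had 37.9, 119 and 25.2 RPM in MOG KO and 27.2, 15.9 and 3.4 RPM in WT libraries (log2 fold change 1.96 ± 1.88, unadjusted p = 0.328 and adjusted p = 0.9996 in edgeR). Together the 3 genes had 499, 175 and 564 RPM in MOG KO and 328, 400.2 and 5.95 RPM in WT libraries, so every library but WT replicate 3 read the c subunit well.

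In the peripheral stalk, Atp5o (OSCP, at the top of the stalk) had 138, 75.2 and 163 RPM in MOG KO and 117, 82.1 and 162 RPM in WT libraries, nearly the same set of values. Its log2 fold change was -0.036 ± 1.68 (adjusted p = 0.9996 in edgeR, 95% interval -3.92 to 3.85), and the value was 0.35 without WT replicate 3. Atp5h (d) had 123, 86.9 and 101 RPM in MOG KO and 80.9, 47.2 and 121 RPM in WT libraries. Atp5f1 (b) was apart, at 158, 217 and 256 RPM in MOG KO and 149, 123 and 0.567 RPM in WT libraries (1.23 ± 2.02, 95% interval -3.48 to 5.93, adjusted p = 0.9996 in edgeR). WT replicate 1 was close to MOG KO replicate 1. Atp5j (F6) was read evenly in 5 libraries, at 92.3 to 113 RPM, and had 0.580 RPM in MOG KO replicate 3.

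Among the membrane subunits, Atp5l (g) had 125, 143 and 103 RPM in MOG KO and 1.1, 44.5 and 0 RPM in WT libraries. All MOG KO libraries were high, WT replicate 2 was intermediate and the other WT libraries were near 0, and the WT libraries stood in the same order as for Sdha. The log2 fold change of Atp5l was 3.05 ± 2.53 (95% interval -2.84 to 8.94; unadjusted p = 0.264, adjusted p = 0.9996 in edgeR), and it ranged from 2.48 without WT replicate 3 to 7.74 without WT replicate 2. Atp5j2 (f) had 56.2, 70.6 and 85.8 RPM in MOG KO and 18.8, 84.7 and 78.2 RPM in WT libraries, and Atp5k (e) was present in 3 libraries. Summed, complex V had 2278, 2145 and 2299 RPM in MOG KO and 2091, 2178 and 1109 RPM in WT libraries, and the genotypes overlapped. WT replicate 3 was the low library. Without it, complexes III and V still overlapped.

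**Figure D4:**
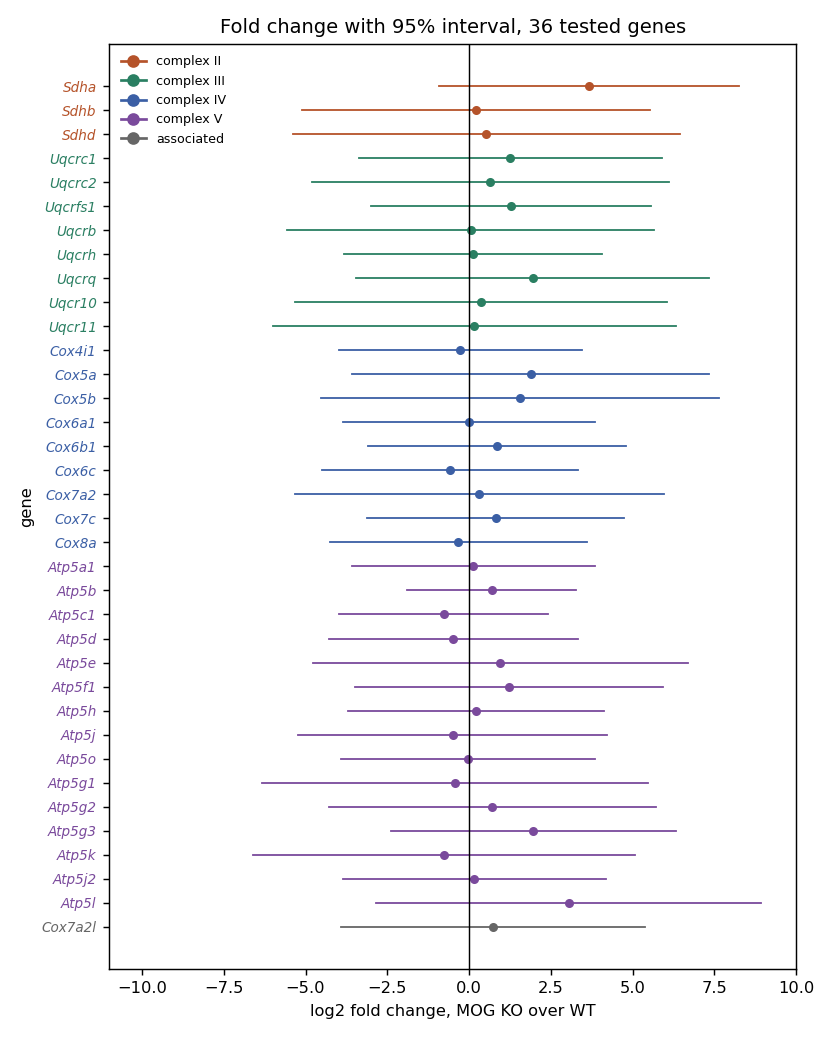
Log2 fold change of MOG KO over WT for the 36 tested genes, with 95% intervals, coloured by complex. Every interval spans 0; Sdha, at 3.66, and Atp5l, at 3.05, have the largest values.

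Of the 36 tested genes, 4 (Sdha, Cox7c, Atp5f1 and Atp5l) had every MOG KO library above every WT library and at 10 RPM or more, where 5.6% of all genes tested did so. None had every MOG KO library below every WT library with WT at 10 RPM or more, where 3.94% of all genes tested did so. By the same rules, 12 of 85 tested ribosomal protein genes were higher in MOG KO and 1 was lower. In the Nduf group, 0 of 26 were higher and 1 was lower. Cox7c and Atp5f1 were apart by narrow margins, and Sdha and Atp5l by wide ones. Sdha lies at chromosome 13, 74322255 to 74350240, Cox7c at chromosome 13, 86044798 to 86046795, Atp5f1 at chromosome 3, 105942698 to 105959263, and Atp5l at chromosome 9, 44913248 to 44920742, on GRCm38. Transcripts of Cox7c, Atp5f1 and Atp5l were at least 95% identical over 100 bases or more to 4, 2 and 9 annotated pseudogenes, and Sdha to none, so reads of the first 3 genes may be shared with or lost to copies.

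Many respiratory genes are known targets of NRF1, of GABP and other ETS factors, and of YY1. The promoter windows of 37 of the 47 genes were matched in RefSeq (GRCm38.p6; 250 bases before the start and 50 after it) and searched on both strands, with a gene counted once. The NRF1 letters GCGCANGCG, where N is any base, were in 12 of 37 genes (32.4%) and in 7.03% of all 27025 genes with a window. The ETS letters CCGGAAG were in 12 of 37 (32.4%) and in 9.93% of all genes, the YY1 letters AAGATGG in 5 of 37 (13.5%) and 7.28%, and the SP1 letters GGGCGG in 14 of 37 (37.8%) and 38.2%. The motifs do not share letters with each other in the windows shown, and a match is not evidence of binding. The upstream 250 bases of 3 of the 4 genes that were apart are shown because their libraries did not overlap between genotypes, and the fourth, Atp5f1, is named only. Capitals mark the NRF1 and ETS letters. Sdha is on the minus strand at chr13:74350241-74350490, Atp5l on the minus strand at chr9:44920743-44920992 and Cox7c on the minus strand at chr13:86046796-86047045.
Sdha: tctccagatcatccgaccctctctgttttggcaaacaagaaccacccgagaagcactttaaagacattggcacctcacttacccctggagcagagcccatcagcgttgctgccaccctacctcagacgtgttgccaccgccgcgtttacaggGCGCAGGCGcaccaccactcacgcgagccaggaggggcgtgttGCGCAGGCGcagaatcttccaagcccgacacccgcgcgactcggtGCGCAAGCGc
Atp5l: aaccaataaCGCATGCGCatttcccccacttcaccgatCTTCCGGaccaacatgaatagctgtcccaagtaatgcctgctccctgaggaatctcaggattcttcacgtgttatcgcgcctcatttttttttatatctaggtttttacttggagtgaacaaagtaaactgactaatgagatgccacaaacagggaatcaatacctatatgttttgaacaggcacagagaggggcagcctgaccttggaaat
Cox7c: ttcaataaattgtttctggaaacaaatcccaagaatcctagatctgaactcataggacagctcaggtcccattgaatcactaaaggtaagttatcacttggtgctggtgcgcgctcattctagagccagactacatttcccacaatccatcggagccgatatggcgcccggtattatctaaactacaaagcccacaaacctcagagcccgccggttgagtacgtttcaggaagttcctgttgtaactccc
Sdha held the NRF1 letters 3 times, starting 98, 55 and 10 bases before its start. Atp5l held them once, 241 bases before its start, and the ETS letters 212 bases before. Cox7c held none of the 4 motifs in the bases shown, and its match to the YY1 letters lies wholly or in part in the 50 bases after the start.

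Per length of the longest protein-coding transcript, the mean levels of the 38 genes present somewhere were of the same order in each complex, with medians of 99.7 RPM per kb in complex II, 89.98 in complex III, 95.4 in complex IV and 104 in complex V. Atp5g2 had the highest mean level, 357 RPM per kb, followed by Cox8a at 211, Cox4i1 at 197 and Cox6a1 at 186. Atp5g2 was present in 4 libraries only, with 1.61 RPM in MOG KO replicate 2 and 2.27 RPM in WT replicate 3. The 4 levels were not tested against each other. The 13 genes present in every library had a median transcript length of 738 bases and the 25 unevenly read genes 1001 bases. Of the 13, 5 had a near-identical pseudogene and 4 an exon overlapped by another gene, and of the 25, 9 and 8 did. These features were not tested against presence.

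The 3 associated genes behaved differently from each other. Cox7a2l, a factor that joins complexes III and IV into supercomplexes, had 53.6, 253 and 276 RPM in MOG KO and 205, 149 and 1.42 RPM in WT libraries, and overlapped between genotypes (log2 fold change 0.74 ± 1.99). Atp5s and Atp5sl, now named Dmac2l and Dmac2, had at most 2 counts in any library and were at or under the floor in both genotypes.

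Other genes of the pathway also had 0 members past the threshold. Of 30 assembly factors of complexes II to V in the table, 8 were tested, with 5 positive and 3 negative values (median log2 fold change 1.1, against 0.06 over all genes tested), and 1 was present in all 6 libraries. Cox14, an assembly factor of complex IV, had 0, 0.688 and 76.8 RPM in MOG KO and 77.3, 69.5 and 79.1 RPM in WT libraries, and MOG KO replicate 3 matched the WT libraries. Of 13 carriers, partners and subunits that the symbols do not cover, 8 were tested, with 4 positive and 4 negative values (median -0.12). Slc25a3, the mitochondrial phosphate carrier, had 517, 1.61 and 613 RPM in MOG KO and 3.31, 205 and 135 RPM in WT libraries, and overlapped. Of 19 genes of the tricarboxylic acid cycle and pyruvate entry, 10 were tested, with 6 positive and 4 negative values (median 0.35). Fh1, which encodes fumarase, the enzyme that acts on the product of complex II, was apart in the opposite direction to Sdha, at 0.231, 0.229 and 108 RPM in MOG KO and 154, 130.1 and 227 RPM in WT libraries (log2 fold change -2.28 ± 2.54, adjusted p = 0.9996 in edgeR). Of 14 regulators of mitochondrial gene expression, 3 were tested, with 2 positive and 1 negative value (median 0.11). That 1 was Yy1, apart at 5.31, 30.04 and 16.5 RPM in MOG KO and 39.7, 156 and 94.7 RPM in WT libraries (-2.52 ± 1.89, adjusted p = 0.9996 in edgeR).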

How the data were processed

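Per the labels' protocols, total RNA of 500 Tregs per library was amplified with the SMARTer V3 kit and 15 PCR cycles, tagged with NexteraXT and read as 100-base single reads. The authors deposited whole-number exon read counts for each gene, and RPM tables (counts scaled to a common library total), which equal those counts over each library's total to within 1e-06 RPM. STAR 2.3.1, R 3.2.2 and build mm10 are named, per the submitters' processing notes; the counter, gene models, strand and multi-mapping settings were not given in the sources used here. No molecular identifiers were used.

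All 23725 genes entered edgeR 4.0.16 (R 4.3.3): filterByExpr, which kept 4088, TMM scaling, a robust quasi-likelihood fit on genotype alone, and Benjamini-Hochberg adjustment over the genes tested, threshold 0.05. Each SE was taken as the size of the log2 fold change over the root of F. The fitting code was tested on simulated data with a low spread between libraries. No pair of libraries held identical columns. Alternatives were DESeq2 1.42.0, its size factors, limma-voom (limma 3.58.1), other filters, a replicate block and leaving out each library. The labels do not say that equal numbers pair libraries, so numbers were not taken as pairs. Deviations of same-numbered libraries had r = -0.022, -0.002 and -0.018 across genes. Because many genes were missed unevenly between libraries, these values cannot exclude a shared origin.

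Genes were matched to GENCODE M21 and RefSeq on GRCm38 by Entrez identifier (47 of 47), and copies were sought with blastn 2.17.0. Per-library values are named for genes present in all 6 libraries, tested genes whose genotypes do not overlap, and the 2 of smallest p per complex, each with fold changes where tested by that rule or among the 6 most abundant; others shown were added after their values were seen. Of each pathway list the gene of smallest p is named, and Cyc1 and Ndufa4 were added after their values were seen. Members and lists were chosen with earlier results of these data known.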

Additional observations from a re-analysis of the deposited data

How the results depend on the processing

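In edgeR, 0 genes and 0 respiratory genes passed under each other filter, scaling, the replicate block and every left-out library, and 0 in limma-voom, where Sdha and Atp5l had an unadjusted p under 0.05. DESeq2 called 744 genes and 1 respiratory gene, Sdhc. The median log2 fold change of the respiratory genes, 0.34, ranged from 0.22 without MOG KO replicate 2 to 0.76 with the replicate block, and the block changed no call. Of 192 values of 16 genes under the alternatives, 186 kept their direction. Leaving out 1 library gave -0.039 to 1.3 for Sdhd, -0.29 to 0.35 for Atp5o and -0.58 to 0.19 for Cox8a, and limma-voom gave 0.047 for Atp5o. The count of genes apart between genotypes, 4, was 6 to 10 with 1 library left out, where fewer libraries make separation easier. Of these, 6 to 9 were higher in MOG KO, where 8.29% to 11.9% of all genes were, and 0 to 2 were lower, where 6.29% to 9.12% of all genes were; the lower ones were Cox6c, Atp5c1, Atp5d or Cox4i1. The count was 8 without MOG KO replicate 1, 9 without MOG KO replicate 2, 10 without MOG KO replicate 3, 8 without WT replicate 1 and 8 without WT replicate 2; these counts and the sums without a library or on TMM-scaled totals were chosen after seeing the data. The 13 genes present in every library were 15 at 3 RPM and 12 at 30 RPM, and 13 to 18 with 1 library left out. The summed difference of 1785 RPM was 1974 RPM on TMM-scaled totals, and that of complex II, 624 RPM, was 720 RPM.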
